A study of Mus musculus with 10 samples.

Results

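The 10 genes described here encode chaperones, disulphide isomerases and stress factors of the endoplasmic reticulum (ER), the compartment in which secreted and membrane proteins fold. They were chosen by name, as the rows hspa5, hsp90b1, pdia4, pdia6, manf, sdf2l1, creld2, hyou1, dnajb9 and calr of the deposited tables, 10 of 14812 gene entries. Earlier results of these data were known at that choice. Contrasts of the members with all genes below are therefore descriptions and no independent tests. All 10 passed the filter on low counts in every test. Hepatocytes make most plasma proteins and carry a large secretory load. When unfolded proteins build up in the ER, the sensors Ern1 (IRE1), Eif2ak3 (PERK) and Atf6 start the unfolded protein response, in which spliced Xbp1 and cleaved Atf6 raise the transcription of folding genes and Atf4 acts on its own targets, Ddit3 (CHOP) among them. Hspa5 (BiP) is the main ER chaperone of the Hsp70 family and holds the sensors inactive while it is bound to them.

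Transcripts were counted in single hepatocytes from male C57BL/6 mice aged 3 months on regular chow ad libitum, with no genotype or drug contrast. All animals were anaesthetised with ketamine and xylazine, and cells were isolated by collagenase perfusion and a Percoll gradient. The groups were zeitgeber times (ZT, hours in the light cycle): 3 libraries at ZT0 (A, B and C), 2 at ZT6 (A and B), 3 at ZT12 (A, B and C) and 2 at ZT18 (A and B). The questions were how expression varies with the time of day, with position between the central vein and the portal vein of the liver lobule, and with both. The number of mice behind each library is not stated in the labels, so p-values measure the spread between libraries, which may be in part technical.

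The tables held 18378 cells with 1048 to 10001 UMIs each (UMIs are counts of distinct tagged molecules), and 1454623 to 7144803 UMIs per library. Cells are numbered without barcodes, so shared barcodes could not be counted, and 0 cells had identical counts in different libraries. The 10 hepatocyte markers summed to 56200 to 112000 CPM per library (counts per 1e6 UMIs after TMM scaling). The lists for plasma, endothelial, macrophage, lymphoid, neutrophil, stellate, biliary and cycling cells reached at most 36.7 CPM. The list for plasma cells, another secretory cell type, and B cells reached at most 0.986 CPM. Only 5 of its 9 markers had a row, and Igj, Igkc, Ighm and Iglc2 had none, so this sum is a limited check for plasma cells. The markers Cd79a, Cd79b, C1qa, C1qb, C1qc, Csf1r, Clec4f, Clec4g, Cd3e, Cd3d, Nkg7 and Gzma had 0 UMIs. The erythroid and haemoglobin list was at 380 CPM in ZT18B, 102 CPM in ZT18A and 70.7 to 94.8 CPM at the other times. In ZT18A most of it was Alas2 (92.66 CPM), with Hbb-bs at 5.811 CPM, whereas Hbb-bs was at 149.8 CPM in ZT18B. The part of this list in the ZT18 values below was not tested. Libraries of ZT0 and ZT12 with the same letter carry the same 10x index column (A in column 3, B in 7, C in 5), both ZT6 libraries are in column 7, and both ZT18 libraries are in column 4, so that ZT18 and column 4 cannot be told apart.

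The sequences just before these genes are shown first because several members carry the same rare element, the ER stress response element (ERSE), a known binding site for Atf6 together with the factor NF-Y. The windows are the 250 bases before the annotated start, from RefSeq on GRCm38.p6, read along the gene's own strand. Of the 10 genes, 8 had a window (Manf and Hyou1 had none). The search was for the letters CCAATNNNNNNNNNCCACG on both strands, which hold a CCAAT box at one end. Capitals mark the ERSE. Where it lies on the opposite strand it begins with CGTGG and ends with ATTGG. Hspa5 and Creld2 are shown as rhythmic genes with the element, Hsp90b1 as the member with 2 copies, and Sdf2l1 as the member with the largest daily amplitude and no copy; for Pdia6 and Calr the matched bases alone are given.
Hspa5, chr2:34771840-34772089, plus strand: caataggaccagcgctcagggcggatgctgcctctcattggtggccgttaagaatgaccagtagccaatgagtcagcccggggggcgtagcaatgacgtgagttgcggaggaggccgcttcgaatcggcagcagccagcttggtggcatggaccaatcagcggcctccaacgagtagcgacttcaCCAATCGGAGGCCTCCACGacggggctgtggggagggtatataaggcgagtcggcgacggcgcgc
Hsp90b1, chr10:86705445-86705694, minus strand: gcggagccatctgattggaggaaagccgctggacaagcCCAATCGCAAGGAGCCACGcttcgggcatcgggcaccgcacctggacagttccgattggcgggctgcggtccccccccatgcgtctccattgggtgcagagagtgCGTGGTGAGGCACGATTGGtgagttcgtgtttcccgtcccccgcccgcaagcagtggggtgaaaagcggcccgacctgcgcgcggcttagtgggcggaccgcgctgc
Creld2, chr15:88819396-88819645, plus strand: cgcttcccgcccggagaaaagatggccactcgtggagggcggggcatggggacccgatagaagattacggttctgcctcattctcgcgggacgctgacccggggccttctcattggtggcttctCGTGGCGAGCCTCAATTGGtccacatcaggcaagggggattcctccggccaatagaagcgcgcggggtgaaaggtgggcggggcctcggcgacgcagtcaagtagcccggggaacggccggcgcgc
Sdf2l1, chr16:17132384-17132633, minus strand: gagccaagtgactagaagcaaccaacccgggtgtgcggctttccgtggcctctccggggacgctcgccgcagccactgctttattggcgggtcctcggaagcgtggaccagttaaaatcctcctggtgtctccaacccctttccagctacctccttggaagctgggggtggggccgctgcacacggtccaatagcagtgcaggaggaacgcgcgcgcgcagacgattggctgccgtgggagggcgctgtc
Pdia6, matched bases: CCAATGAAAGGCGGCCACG
Calr, matched bases: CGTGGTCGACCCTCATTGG

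The element was present in 5 of the 8 windows, against 37 of the 32851 windows of all genes (0.113%), the members' own included. Element and members were both picked as known parts of the ER stress response, so this contrast is no independent test. It lay at -65 to -47 from the start in Hspa5, at -98 to -80 in Pdia6, at -126 to -108 in Creld2 and at -162 to -144 in Calr. Hsp90b1 held it at -212 to -194 and, on the opposite strand, at -107 to -89. Pdia4, Sdf2l1 and Dnajb9 held no match in these windows. Every member window had a CCAAT box, as did 33.8% of all windows. The letters ATTGGNCCACG (ERSE-II, which also holds a CCAAT box on the opposite strand) occurred in 0.0304% of all windows and the letters TGACGTGG (the core of the unfolded protein response element) in 0.563%, both in 0 of the 8. Of the other lists described below, Canx and Dnajc3 (2 of 20 ER folding factors with a window) and Syvn1 and Derl3 (2 of 12 degradation genes with a window) held an ERSE. A match in letters is a description of the sequence and does not show binding.

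Over the day, Hspa5, Manf, Sdf2l1 and Creld2 had a 24-h rhythm, with fitted peaks between ZT 19.15 and ZT 21.50 and peak-to-trough folds of 4.11 to 7.25. These 4 of 10 members passed the threshold in edgeR's quasi-likelihood test of a 24-h wave (adjusted p under 0.05 over all genes), against 5.14% of the 8908 genes tested. The median amplitude (from mean level to peak, in log2 units) was 0.81 over the 10 members and 0.25 over all genes. The members' fitted peaks, called or not, lay between ZT 18.44 and ZT 23.12. The times were 6 h apart, so the 24-h period was set in the model and not observed. Peaks between sampled times, and the folds, are values of the fitted wave and have no interval here. For Sdf2l1, with a fitted fold of 7.25, the highest and lowest means per time were 82.49 CPM (ZT0) and 16.96 CPM (ZT12). The biliary marker list summed to 17.3 to 36.7 CPM at ZT0, 0.792 to 4.84 at ZT6, 3.37 to 5.73 at ZT12 and 12.2 to 17.8 at ZT18, without overlap between ZT0 or ZT18 and the other 2 times. Most of it was Sox9, while Krt19, Krt7 and Epcam were each at or below 0.674 CPM in every library. Immediate early genes that cell isolation can induce summed to 1260 to 1270 CPM in the ZT6 libraries and 685 to 1190 CPM in the others. The part of either list in the members' values over the day was not tested.

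**Figure D1:**
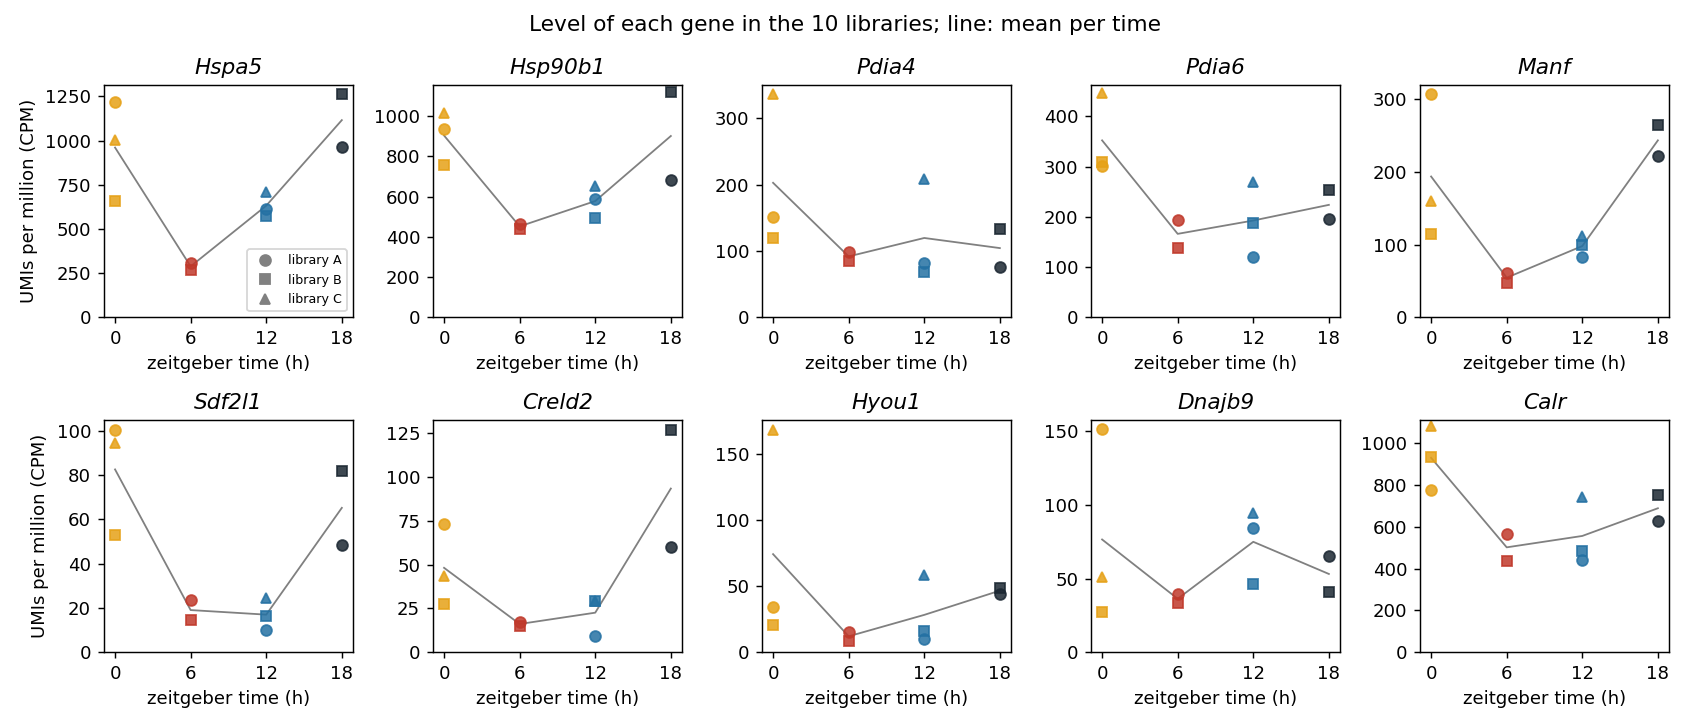
CPM of each member (vertical axis, from 0) against zeitgeber time in hours; symbols are libraries A, B and C, and the line joins the means per time. Hspa5, Hsp90b1 and Manf have their lowest values in both ZT6 libraries, and Pdia4 and Hyou1 are high in the C libraries.

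Hspa5 measured 1221, 660.4 and 1001 CPM in ZT0A, ZT0B and ZT0C, 308.1 and 269.9 in ZT6A and ZT6B, 615.1, 573.3 and 708.2 in ZT12A, ZT12B and ZT12C, and 966.6 and 1265 in ZT18A and ZT18B. Both ZT6 libraries lay below every other library, and both ZT18 libraries lay above all 3 ZT12 libraries, while ZT0 and ZT18 overlapped. The fitted amplitude was 1.02 and the fitted peak ZT 19.15 (edgeR adjusted p = 0.017). The call was lost without ZT6A, ZT6B or ZT18B, with amplitudes of 0.87 to 1.20 over the libraries left out in turn and a highest adjusted p of 0.0846.

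Manf, a secreted ER protein that binds Hspa5, measured 306.2, 114.2 and 160 CPM at ZT0 (A, B, C), 61.34 and 47.89 at ZT6, 82.87, 99.26 and 112 at ZT12, and 221.5 and 264.6 at ZT18. Its order of libraries was like that of Hspa5: of 4348 genes that averaged 20 CPM or more it was the nearest to Hspa5 over the 10 libraries, with a root-mean-square difference of 0.253 in centred log2(CPM + 1). Its amplitude was 1.18 and the fitted peak ZT 19.64 (edgeR adjusted p = 0.00842), and it was called in all 22 alternatives run.

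Sdf2l1, a partner of ER Hsp40 co-chaperones, measured 100.4, 52.69 and 94.34 CPM at ZT0, 23.41 and 14.64 at ZT6, 10.11, 16.52 and 24.25 at ZT12, and 48.43 and 81.84 at ZT18. The 5 libraries of ZT0 and ZT18 all lay above the 5 of ZT6 and ZT12, all of which were at or below 24.25 CPM. Unlike Hspa5 and Manf, which were higher at ZT12 than at ZT6 in every library, Sdf2l1 overlapped between those times, and its fitted peak was at ZT 21.50 (amplitude 1.43, edgeR adjusted p = 0.00173). It was called in all 22 alternatives. Whether its peak time differs from those of the other members was not tested.

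Creld2, an ER protein with disulphide isomerase activity that is induced by ER stress, measured 73.4, 27.59 and 43.71 CPM at ZT0, 17.22 and 15.04 at ZT6, 9.432, 29.29 and 29.1 at ZT12, and 60.05 and 127 at ZT18. ZT12A, the lowest value, rests on 14 UMIs. The amplitude was 1.37 and the fitted peak ZT 19.44 (edgeR adjusted p = 0.0127). The call was lost without ZT18B, without both ZT18 libraries, and with the index column as a block (edgeR adjusted p = 0.266, amplitude 0.95).

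The other 6 members did not pass. With the letter as a replicate block, however, 4 of these 6 were called: Hyou1 (edgeR adjusted p = 0.00395), Hsp90b1 (0.0282), Pdia6 (0.0362) and Calr (0.0406). Values without the block follow. Hsp90b1 (GRP94), the ER member of the Hsp90 family, measured 937.2, 756 and 1018 CPM at ZT0, 466.2 and 438.9 at ZT6, 590.2, 493.4 and 651.3 at ZT12, and 681.9 and 1121 at ZT18. Both ZT6 libraries were its lowest, with no overlap with any other time; the amplitude was 0.59 (edgeR adjusted p = 0.0575). DESeq2 gave an adjusted p of 0.00206 for it. The lectin chaperone Calr had an amplitude of 0.44 (edgeR adjusted p = 0.157), and the disulphide isomerase Pdia6 one of 0.48 (edgeR adjusted p = 0.18). Their fitted peaks were at ZT 21.90 and ZT 22.26. The isomerase Pdia4 (amplitude 0.40, edgeR adjusted p = 0.532), the ER Hsp70-like nucleotide exchange factor Hyou1 (1.16, 0.267) and the Hspa5 co-chaperone Dnajb9 (ERdj4; 0.27, 0.901) had wide spreads within times. Dnajb9 was at 151.5 CPM in ZT0A and 26.97 in ZT0B, its highest and lowest libraries.

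Pdia4 and Hyou1 were highest in the C libraries at both times that have one. Hyou1 measured 34.33, 20.46 and 168.4 CPM in ZT0A, ZT0B and ZT0C, 15.48 and 8.707 at ZT6, 10.11, 16.24 and 58.65 in ZT12A, ZT12B and ZT12C, and 44.55 and 48.88 at ZT18. The C library was 4.91 times the higher of A and B at ZT0 and 3.61 times at ZT12. Pdia4 measured 151.9, 119.6 and 336.5 CPM at ZT0, 98.3 and 85.49 at ZT6, 82.2, 67.75 and 209 at ZT12, and 75.55 and 133.3 at ZT18, with C 2.22 and 2.54 times the higher of A and B. For Pdia6 these ratios were 1.45 and 1.44, and for the other 7 members C was not above both A and B by that much at both times (Calr 1.15 and 1.54). The C libraries share index column 5, and library and column cannot be told apart. In single cells thinned to 1000 UMIs, 17.55% of ZT0C cells had a Hyou1 UMI, where 20.91% would at the same mean if counts were Poisson; its variance was 1.474 times the mean, the highest value over members and libraries, against 0.984 in ZT12C.

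Between ZT18 and ZT6, Hspa5, Manf, Creld2 and Sdf2l1 were higher at ZT18, by 3.36 to 5.76 times. These 4 of 10 passed, all higher, against 3.79% of all genes in both directions. Creld2 rose by 2.53 ± 0.51 on the log2 scale (SE, here and for later differences; edgeR adjusted p = 0.0181), Manf by 2.15 ± 0.38 (0.00913), Hspa5 by 1.95 ± 0.32 (0.00495) and Sdf2l1 by 1.75 ± 0.40 (0.0302). For 9 of the 10 members both ZT18 libraries lay above both ZT6 libraries, as they did for 30.9% of all genes tested; Pdia4 overlapped. The median log2 difference was 1.37 over the members and -0.01 over all genes. Hyou1 (1.90 ± 0.89), Hsp90b1 (0.99 ± 0.29), Dnajb9 (0.54 ± 0.60), Calr (0.46 ± 0.31), Pdia6 (0.43 ± 0.35) and Pdia4 (0.18 ± 0.53) did not pass. Without ZT6A, ZT6B or ZT18B, which leaves 1 library at a time that is assumed to vary like the other groups, 0 members were called, with log2 differences of 1.74 to 2.13 for Hspa5 over the libraries left out; without ZT18A Sdf2l1 alone was lost. With the letter as a replicate block 6 members were called, against 8.19% of all genes, though same-letter libraries of ZT6 and ZT18 deviated together only weakly (r = 0.115).

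Within index column 7, which holds ZT0B, both ZT6 libraries and ZT12B, the ZT6 libraries were set against ZT0B and ZT12B gene by gene. Against the mean log2 CPM of the ZT6 libraries, ZT0B was higher by 1.51 for Sdf2l1, 1.20 for Hspa5, 1.08 for Manf, 0.91 for Pdia6 and for Calr, 0.82 for Hyou1, 0.78 for Creld2, 0.74 for Hsp90b1 and 0.38 for Pdia4, and lower for Dnajb9 (-0.42). ZT12B was higher by 0.99 for Hspa5, 0.87 for Manf, 0.86 for Creld2, 0.48 for Hyou1, 0.35 for Dnajb9, 0.20 for Pdia6 and 0.13 for Hsp90b1, and lower for Pdia4 (-0.44), Sdf2l1 (-0.16) and Calr (-0.04). With 1 library at ZT0 and at ZT12 in this column there is no test, and the share of all genes lower at ZT6 was not counted.

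Between ZT12 and ZT0, Sdf2l1 was 4.77-fold lower at ZT12, and the other members were lower by less. It was the 1 of 10 that passed, against 3.44% of all genes (log2 difference -2.25 ± 0.34, edgeR adjusted p = 0.0019), and it did so in all 20 alternatives. All 10 fitted differences were negative, with a median of -0.82 against 0 over all genes, and for 5 members (Hsp90b1, Pdia6, Manf, Sdf2l1 and Calr) all 3 ZT12 libraries lay below all 3 ZT0 libraries, as for 8.3% of all genes. Manf (-0.98 ± 0.30, edgeR adjusted p = 0.107), Pdia6 (-0.87 ± 0.28, 0.132), Calr (-0.74 ± 0.25, 0.148) and Hsp90b1 (-0.64 ± 0.24, 0.2) did not pass.

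Compared within letters, 8 of the 10 members were lower at ZT12 in all 3 pairs, as were 20.6% of all genes. Hsp90b1 was nearly the same in each pair, with log2 differences of -0.67 (A), -0.62 (B) and -0.64 (C), as was Pdia4, with -0.89, -0.82 and -0.69. Calr differed by -0.81, -0.95 and -0.54 and Pdia6 by -1.33, -0.71 and -0.72. Manf differed by -1.89 in pair A and by -0.20 and -0.51 in B and C, so that its mean rests on pair A. Dnajb9 went both ways, at -0.85, 0.77 and 0.89, and Creld2 differed by -2.96, 0.09 and -0.59. With the letter as a replicate block 5 members were called (Sdf2l1, Hyou1, Pdia6, Calr and Pdia4), against 5.66% of all genes in that fit, with edgeR adjusted p from 0.000886 for Sdf2l1 to 0.0484 for Pdia4. With the index column as a block there were 6, Hsp90b1 added (edgeR adjusted p = 0.0444), against 8.61% of all genes. For the 24-h wave the letter as a block gave 8 called members, all but Pdia4 and Dnajb9, against 8.41% of all genes. The index column as a block gave 6 (Hspa5, Manf, Sdf2l1, Hyou1, Pdia6 and Calr), against 6.99%.

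**Figure D2:**
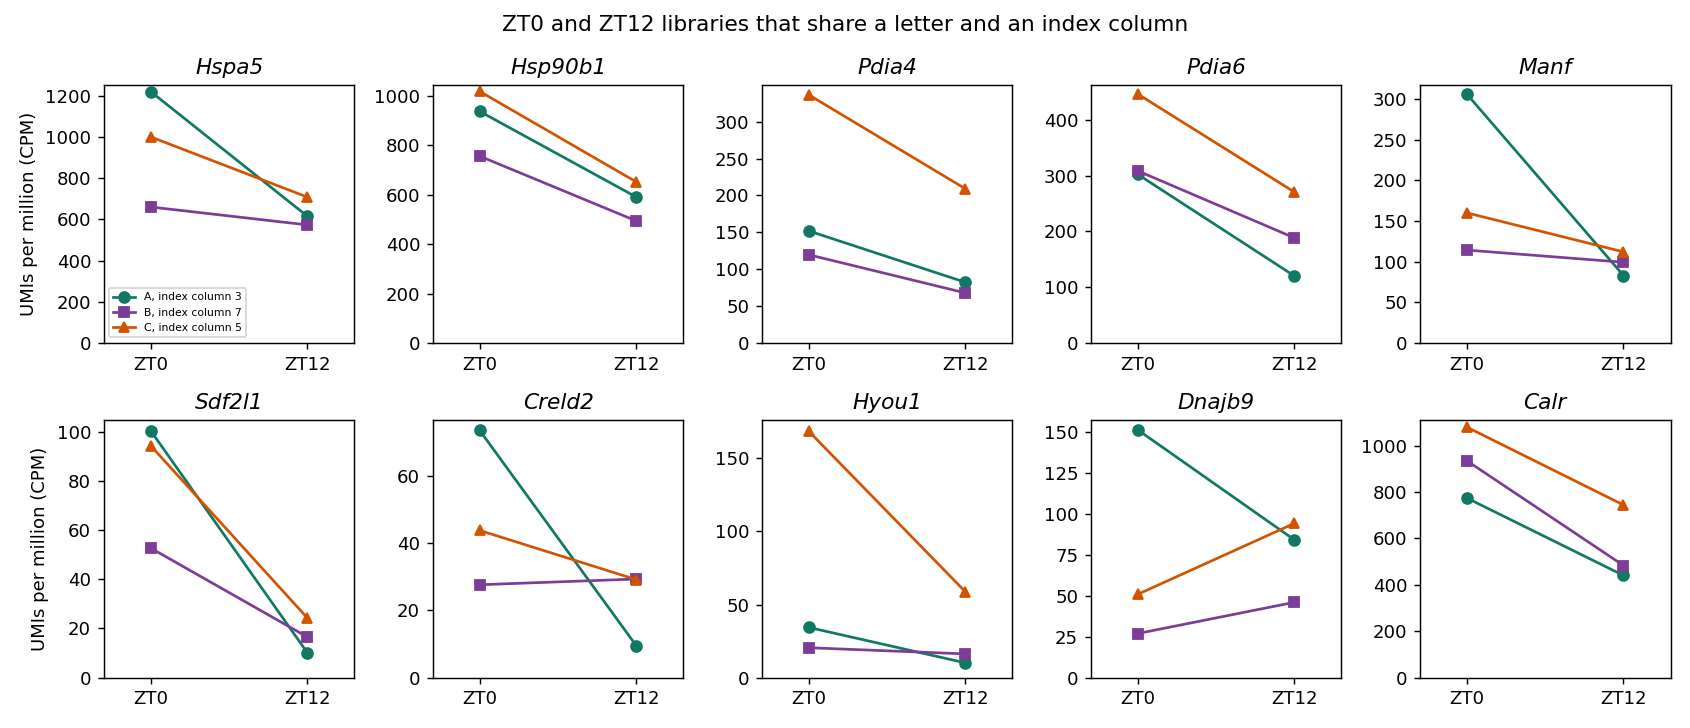
CPM of each member (vertical axis, from 0) in the ZT0 and ZT12 libraries, joined where the libraries share a letter and an index column. Pdia4 runs nearly parallel in the 3 pairs at different heights, whereas Dnajb9 rises in pairs B and C and falls in pair A.

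The level per cell was described after thinning each cell to 1000 UMIs. The share of cells with an Hspa5 UMI was 63.72%, 47.34% and 65.46% at ZT0 (A, B, C), 27.60% and 23.28% at ZT6, 43.38%, 44.39% and 53.82% at ZT12, and 60.97% and 69.78% at ZT18. The widest gap from Poisson counts of the same mean was in ZT0A, where they would give 67.3%. No cell type without Hspa5 is in the tables to set a background. The variance of Hspa5 counts was 1.023 to 1.173 times their mean, and the correlation across cells with the summed counts of the other 9 members was -0.001 to 0.114, which in counts this sparse is no finding.

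Along the lobule, Hsp90b1, Hspa5, Pdia6 and Dnajb9 were higher in periportal than in pericentral cells, by 1.31 to 1.34 times. Each library's cells were ordered by 8 periportal minus 8 pericentral landmark genes, none of which is a member, and divided into 3 equal parts, of which the first and the last are the zones. These 4 of 10 members passed, all periportal, against 24.8% of all genes in both directions, and they were called in all 24 alternatives. The median log2 difference was 0.18 over the members and -0.01 over all genes. With library size alone as the scaling the median over all genes was -0.105, and the same 4 were called periportal in tests against 0.

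Periportal levels of Hsp90b1 exceeded pericentral ones in all 10 libraries, by log2 differences from 0.17 in ZT0A to 0.66 in ZT6A and means of 609.4 ± 212 CPM (SD, n = 10) pericentrally and 807.8 ± 266 periportally. The fitted difference was 0.42 ± 0.06 (edgeR adjusted p = 1.62e-06). Hspa5 was higher in all 10 as well, from 234.1 to 371.1 CPM in ZT6A, the widest log2 difference, and from 1141 to 1279 CPM in ZT0A, the narrowest (fit 0.40 ± 0.06, edgeR adjusted p = 4.2e-06). Pdia6 differed by 0.18 to 0.58 in all 10 (fit 0.40 ± 0.06, edgeR adjusted p = 7.36e-06). Dnajb9 was higher in 9 of 10 libraries, with -0.04 in ZT18B and 0.90 in ZT6A (fit 0.39 ± 0.09, edgeR adjusted p = 0.00088).

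Calr, too, was higher periportally in all 10 libraries, which makes 4 members against 5.59% of all genes, by a small amount (0.15 ± 0.06, edgeR adjusted p = 0.0645). Creld2 (0.21 ± 0.11, higher in 6 of 10), Manf (0.15 ± 0.08, 8 of 10), Pdia4 (-0.08 ± 0.07, 5 of 10), Sdf2l1 (-0.04 ± 0.09, 4 of 10) and Hyou1 (-0.01 ± 0.14, 6 of 10) did not pass. The sign for Sdf2l1 and Hyou1 changed under other settings. Hyou1 was uneven between libraries, from 2.038 to 14.16 CPM in ZT12A, where the whole library held 15 of its UMIs, and from 198.9 to 135.5 CPM in ZT0C. Of the 4 genes with a called rhythm, only Hspa5 also had a called zone difference; Sdf2l1, Manf and Creld2 did not pass there, and the difference between the genes was not tested.

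**Figure D3:**
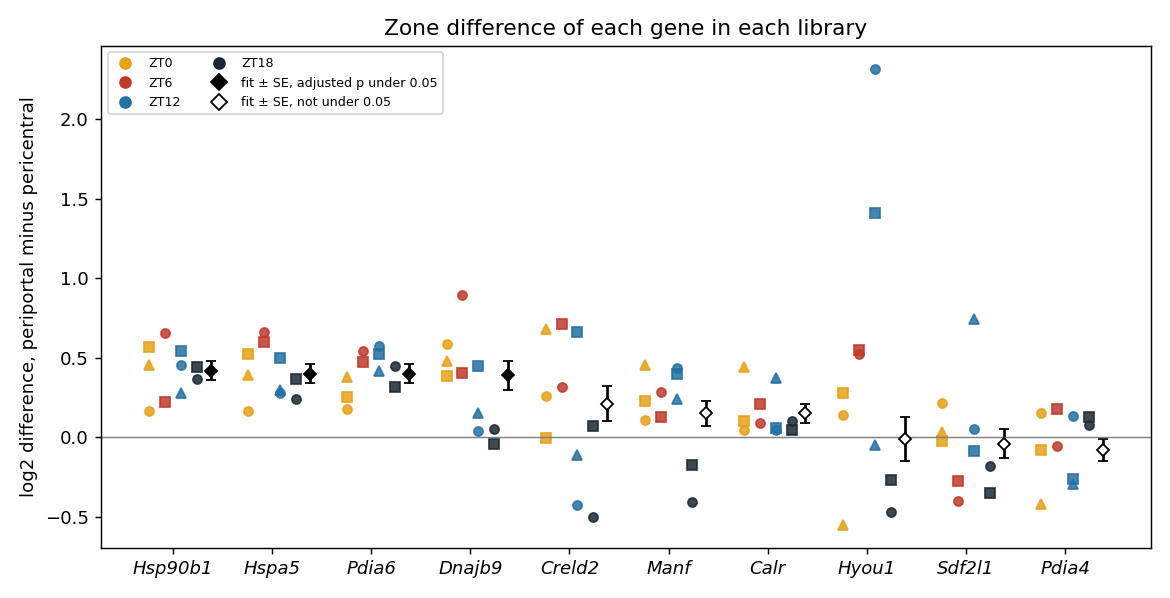
Log2 difference between periportal and pericentral CPM (vertical axis) for each member in each library, coloured by time, with the edgeR fit ± SE beside it (filled where the adjusted p is under 0.05). Hsp90b1, Hspa5, Pdia6 and Calr lie above 0 in all 10 libraries.

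Over 8 equal layers the 4 zonated members rose gradually. From layer 1 (nearest the central vein) to layer 8, the means over 10 libraries went from 644.1 to 850 CPM for Hspa5, from 573.2 to 809.3 for Hsp90b1, from 191.1 to 277 for Pdia6 and from 52.44 to 77.8 for Dnajb9. The highest layer was 7 or 8 in 8 of 10 libraries for Hspa5, Hsp90b1 and Pdia6, and in 7 for Dnajb9. The means of Manf over the 10 libraries stayed between 139.2 and 155 CPM, but its course differed between times. From layer 1 to layer 8 it went from 166.4 to 212.1 CPM at ZT0 and from 56.32 to 59.08 at ZT6. At ZT12 it went from 69.24 to 110.2 CPM, and at ZT18 it fell from 286.4 to 232.5. The slope over the 8 layers, an alternative to the zone test, called Manf and Calr periportal besides the 4 zonated members. For Sdf2l1 and Creld2 the highest layer was one of layers 3 to 6 in 9 of 10 libraries, but their layer means (41.8 to 53.99 and 39.36 to 47.36 CPM) followed no steady course and rest on few UMIs.

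**Figure D4:**
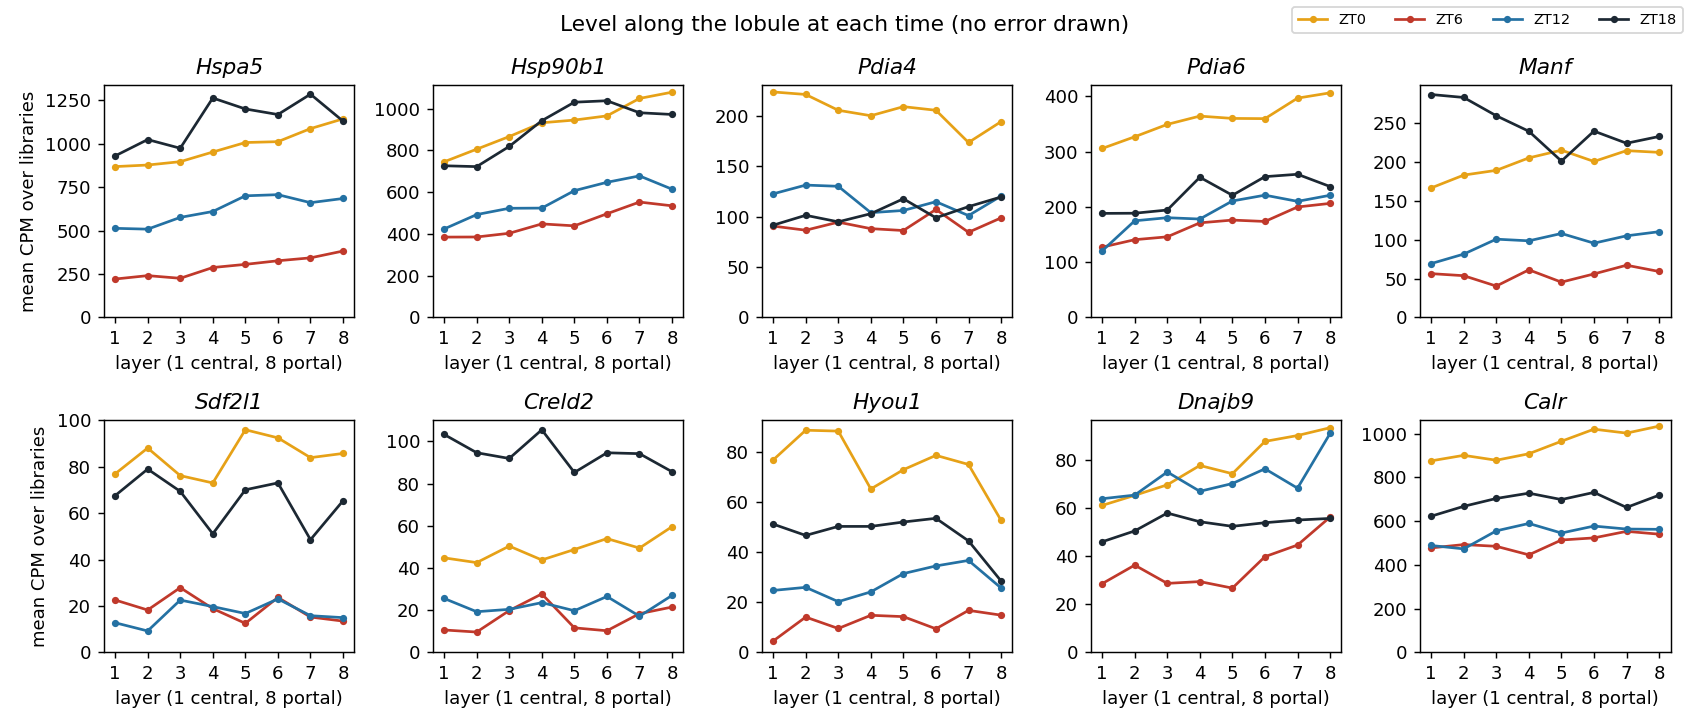
Mean CPM over the libraries of a time (vertical axis, from 0) in 8 layers from the central (1) to the portal (8) side, with a line for each time and no error drawn. Hspa5, Hsp90b1 and Pdia6 are higher in layer 8 than in layer 1 at all 4 times, though at ZT12 and ZT18 each is highest before layer 8. Manf falls from layer 1 to layer 5 at ZT18.

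Within single times the same members led. At ZT0, 3 of 10 passed (Dnajb9 0.52, Hsp90b1 0.40 and Hspa5 0.36), against 13.4% of all genes. At ZT6, 4 passed (Dnajb9 0.73, Hspa5 0.64, Pdia6 0.52 and Hsp90b1 0.45), against 7.06%. At ZT12, 3 passed (Pdia6 0.50, Hsp90b1 0.43 and Hspa5 0.37), against 10.0% of all genes. At ZT18, 0 passed by edgeR against 6.54%, and 1 to 3 were called in some other settings. The members with the smallest unadjusted p at ZT18 were Hsp90b1 (difference 0.41), Pdia6 (0.38), Hspa5 (0.30) and Manf (-0.29). The Hsp90b1 value at ZT6 ran from 0.20 to 0.66 over the libraries left out in turn, and its call there was lost in 6 of the 10 (without ZT0B, ZT6A, ZT6B, ZT12A, ZT18A or ZT18B). At ZT0 the call of Hsp90b1 was lost without ZT0B, that of Hspa5 without ZT0B or ZT0C and that of Dnajb9 without ZT0A. Those of Hspa5, Pdia6 and Dnajb9 at ZT6 were lost without ZT6A or ZT6B. At ZT12 Hspa5 and Hsp90b1 were lost without ZT12A or ZT12B, and Pdia6 without ZT12B.

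Manf changed sign at ZT18. It was higher periportally in the 8 libraries of the other times (log2 differences of 0.11 to 0.46) and lower in ZT18A (from 285.7 to 214.9 CPM) and ZT18B (from 282.7 to 250.5 CPM). Dnajb9 differed by 0.39 to 0.90 at ZT0 and ZT6 and by -0.04 and 0.05 at ZT18. The test of a zone-dependent rhythm called 0 of 10 members by edgeR, against 0.0448% of all genes (4 of 8923), and DESeq2 called 0 genes in all. The smallest unadjusted p of the edgeR test among the members were those of Hyou1 (0.00623), Dnajb9 (0.0245) and Manf (0.0362), with adjusted p of 0.567 to 0.771. Without both ZT18 libraries, Manf (0.29, edgeR adjusted p = 0.00649) and Creld2 (0.37, 0.0199) joined the periportal calls.

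Mitochondrially encoded genes took a larger share of UMIs periportally in all 10 libraries, for instance 23.53% against 17.83% pericentrally in ZT18A. Their part in the zone differences was not tested. Biliary markers summed to at most 15.6 CPM in the pericentral and 54.4 CPM in the periportal zone and were higher in the latter in all 10 libraries; their part was not tested.

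The other genes of the pathway were described from lists. Over all genes, 5.14% passed the test of a 24-h wave and 24.8% the zone test, the latter in both directions. The called counts of the lists, here and in the following paragraphs, were not tested against these shares. Of 24 other ER folding factors, 15 were higher in the periportal zone and 0 lower, with a median log2 difference of 0.33, against 0.18 over the members and -0.01 over all genes. Among them were the peroxiredoxin Prdx4 (0.63 ± 0.08), the oxidase Ero1lb (0.60 ± 0.08) and the isomerases Pdia5 (0.84 ± 0.12) and Txndc11 (0.69 ± 0.11). Over the day 2 of the 24 had a 24-h rhythm: Dnajb11 (ERdj3, an Hspa5 co-chaperone that works with Sdf2l1; amplitude 0.68, peak ZT 19.96, edgeR adjusted p = 0.00955) and the isomerase Pdia3 (0.54, ZT 22.84, edgeR adjusted p = 0.038). Their median amplitude was 0.25, the same as over all genes, against 0.81 over the members. Their summed level was 2480 to 2710 CPM at ZT6 and 3020 to 3570 CPM at ZT18, while the 10 members summed to 1490 to 1790 and 2990 to 4090 CPM. In zones the members summed to a higher level periportally in all 10 libraries, as did the other folding factors.

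**Figure D5:**
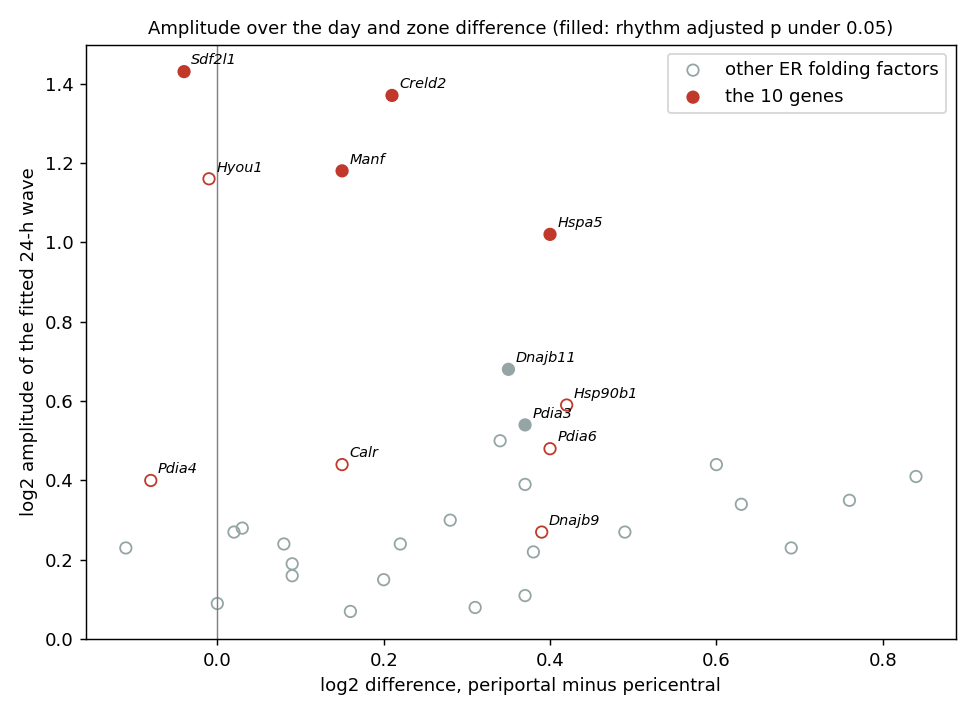
Log2 amplitude of the fitted 24-h wave (vertical axis, from 0) against the log2 zone difference for the 10 members (red) and the 24 other ER folding factors (grey), filled where the rhythm passed. Sdf2l1, Creld2, Manf and Hyou1 have amplitudes above 1.1 and zone differences of at most 0.21, and Hspa5 combines an amplitude of 1.02 with a zone difference of 0.40.

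Of 16 ER-associated degradation genes tested, 2 were rhythmic, the ubiquitin ligase Syvn1 (Hrd1; amplitude 0.98, peak ZT 19.54, edgeR adjusted p = 0.0088) and its partner Sel1l (0.46, ZT 19.11, edgeR adjusted p = 0.0417). In zones, Herpud1 (0.50 ± 0.06), Os9 (0.46 ± 0.08), Derl2 (0.23 ± 0.07) and Sel1l (0.22 ± 0.07) were periportal and Vcp (-0.44 ± 0.07), a cytosolic ATPase, pericentral. Of 12 sensors and transcription factors, Atf6b alone was rhythmic (0.68, ZT 21.18, edgeR adjusted p = 0.0373). Xbp1 transcripts, spliced and unspliced forms not being separated by these counts, had an amplitude of 0.26 (edgeR adjusted p = 0.381), and Atf4 (0.42, 0.253), Atf6 (0.32, 0.275), Ern1 (0.37, 0.228), Eif2ak3 (0.36, 0.698) and Ddit3 (0.21, 0.722) did not pass. In zones Xbp1 (0.40 ± 0.07), Creb3l2 (0.54 ± 0.14), Creb3l3 (0.24 ± 0.07) and Atf4 (0.22 ± 0.08) were periportal and Nfe2l1 (-0.32 ± 0.08) pericentral.

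Of 11 Atf4 and CHOP targets tested, the pseudokinase Trib3 was rhythmic, with its peak at ZT 7.38 (amplitude 1.78, edgeR adjusted p = 0.0188), near the members' low point. Trib3 was low and uneven, at 12.58 CPM in ZT6A, its highest library, 0.6737 CPM in ZT12A, its lowest, and 8.82 CPM in ZT12C. In zones 0 of the 11 were periportal and 2 pericentral, Cebpb (-0.72 ± 0.07) and Gdf15 (-0.69 ± 0.16). The list of heat shock chaperones was cytosolic apart from the mitochondrial Hspd1 and Hspe1. Of its 16 genes tested, Hsp90aa1 (1.41, ZT 19.75, edgeR adjusted p = 5.45e-05) and Hsph1 (1.37, ZT 18.45, edgeR adjusted p = 0.00444) were rhythmic, with peaks close to those of Hspa5 and Manf. In zones 0 were periportal and 4 pericentral (Hspa1b -1.56 ± 0.16, Dnaja1 -0.51 ± 0.06, Hsp90aa1 -0.44 ± 0.07 and the mitochondrial Hspd1 -0.24 ± 0.06). Of the immediate early genes, by edgeR 0 of 12 were rhythmic, the smallest unadjusted p being 0.00735 (Junb), 0.0121 (Egr1) and 0.0328 (Jund). In zones 5 were periportal, led by Btg2 (0.75 ± 0.09), Fos (0.74 ± 0.10), Junb (0.59 ± 0.08) and Gadd45g (0.51 ± 0.08), and Jun (-0.34 ± 0.10) was pericentral. Their part in the members' zone differences was not tested.

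By the same measure that placed Manf nearest to Hspa5 over the libraries, the 5 nearest genes outside the 10 were Hist1h1c (0.257), Hsph1 (0.300), Mcfd2 (0.329), Selenbp2 (0.362) and Dnajb11 (0.365), and Hsp90b1 ranked 7 of 4348 (0.371). Sdf2l1, Pdia4, Dnajb9 and Hyou1 ranked 1483, 1602, 1560 and 3003. Over the 8 layers the nearest were mt-Atp6 (0.024), mt-Co3 (0.026), Spcs2 (0.029), Cfhr2 (0.031) and Egfr (0.031), with Hsp90b1 at rank 10 and Pdia6 at rank 29, whereas Manf ranked 288. Hsp90b1 was thus the member that lay close to Hspa5 on both axes.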

How the data were processed

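The authors deposited whole-number UMI counts per gene and cell for each of the 10 libraries. Per the labels' protocols the libraries were made with the 10x Chromium 3' kit; the submitters' processing notes name Cell Ranger and the builds mm10 and hg19, with no version or role, and the cell filter is not given in the sources used here. Strand use and the treatment of shared reads are not given either. The members and the gene lists were chosen with earlier results of these data known.

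Counts were summed per library, and per library and zone, and tested with edgeR 4.0.16 (quasi-likelihood, TMM) in R 4.3.3, on genes averaging 3 CPM or more, with Benjamini-Hochberg adjustment over all genes and a threshold of 0.05. Times were tested in all 10 libraries together, zones with the library as a block. DESeq2 1.42.0 was an alternative. The 10 members are named throughout, and from each other list up to 4 called genes per test by smallest p. Layers are 8 equal parts of the cell order; landmark scores from odd and even landmarks correlated across cells with r from 0.6829 to 0.8465. Doublets were not called; dropping the 5% of cells richest in UMIs was an alternative. ZT0 and ZT12 libraries of the same letter deviated together from their group means (r = 0.269, 0.509 and 0.625) and share an index column, which is where the pairing comes from. Same-letter libraries of ZT6 gave r = 0.115 with ZT18, -0.115 and -0.049 with ZT0, and -0.023 and 0.062 with ZT12. Those of ZT18 gave 0.088 and 0.066 with ZT0 and 0.193 and 0.14 with ZT12. The letter block spans all times, so at ZT6 and ZT18 it rests on weak or absent pairing. Libraries of a group differed by more than sampling noise (chi-square of 5.304 or more per degree of freedom). On simulated counts 98.0% of simulated rhythms of log2 amplitude 1 and 27.0% of those of 0.5 were recovered (8934 genes), as were 81.1% of zone differences of 1 and 15.0% of those of 0.5 (8911 genes). The simulation gave every gene the same fixed spread and had no effect of letter, index column or library. These shares therefore do not measure the power for the members, whose spread differs from gene to gene. Positions and sequences came from RefSeq on GRCm38.p6.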

Additional observations from a re-analysis of the deposited data

Results flagged for a closer look

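The zone difference of Manf and of Hyou1 went opposite ways at different times. For Manf every library of ZT0, ZT6 and ZT12 was higher in the periportal zone and both ZT18 libraries were lower there, so that the mean log2 differences were apart from that of ZT18 by 0.56 for ZT0, 0.50 for ZT6 and 0.65 for ZT12. For Hyou1 both ZT6 libraries were higher and both ZT18 libraries lower in the periportal zone, a gap of 0.91, and at ZT6 these rest on 80 and 22 UMIs in the whole libraries. The differences between single times were not tested. The test of a zone difference that follows a 24-h wave did not pass for either gene (edgeR adjusted p = 0.771 for Manf and 0.567 for Hyou1).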

How the results depend on the processing

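The periportal calls of Hsp90b1, Hspa5, Pdia6 and Dnajb9 held in all 24 alternatives, with log2 differences between 0.30 and 0.56, and the rhythms of Manf and Sdf2l1 in all 22. Over all alternatives the counts of called members moved by over 1.5 times in 31 of 199 cases. The member values, most of them under the threshold, kept direction and side in 1819 of 1990 cases, lost the call in 68, gained it in 59 and changed sign or phase in 44. The cause of these moves was not tested, except where fewer libraries or UMIs entered by construction.

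Called members per setting were as follows. For the 24-h rhythm (4), 8 were called with the letter as a replicate block. Between ZT12 and ZT0 (1), 2 were called without a filter on low counts and by DESeq2, 5 with the letter as a replicate block and 6 with the index column as a block. The letter block, for ZT18 against ZT6, gave 6 instead of 4. Between zones at ZT6 (4), 1 was called with library size alone, without the 5% of cells with the most UMIs and by DESeq2, and 2 with the even-numbered landmarks and with cells thinned to 1000 UMIs. At ZT0 (3), 6 were called with the slope over 8 layers and 0 in thinned cells. At ZT12 (3), 5 were called with the slope and 0 in cells with at least 3000 UMIs. At ZT18 (0), 1 was called without a filter, without the 5% of cells and with the odd-numbered landmarks, 2 at a mean of at least 20 CPM and 3 with the slope. Leaving out each library in turn gave 2 to 6 for the rhythm, 1 to 2 between ZT12 and ZT0, 0 to 4 between ZT18 and ZT6, and 1 to 3, 0 to 4, 0 to 4 and 0 to 1 between zones at ZT0, ZT6, ZT12 and ZT18.

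None of the sign changes concerns a called value. With library size alone they were Dnajb9 between ZT12 and ZT0 (0.16) and, between zones, Sdf2l1 at ZT0 (-0.02), Pdia4 at ZT6 (-0.08), and Dnajb9 (-0.07) and Calr (-0.01) at ZT18. Without the 5% of cells with the most UMIs they were Sdf2l1 at ZT0 (-0.02) and Dnajb9 at ZT18 (-0.10). DESeq2 gave Hyou1 0.17 between zones. Dnajb9 between ZT12 and ZT0 was at 0.17 with the letter block and 0.28 with the index column, where its fitted peak also moved by over 6 h (amplitude 0.14). Between zones, Sdf2l1 was at 0.02 with the odd-numbered landmarks, 0.11 in cells with at least 3000 UMIs and 0.03 without both ZT18 libraries, and Hyou1 at 0.02 and 0.08 in the last 2 settings. At ZT6 Pdia4 was at -0.05 with the even-numbered landmarks, -0.28 in thinned cells and -0.06 in cells with at least 3000 UMIs. At ZT18 Dnajb9 was at -0.11 with the even-numbered landmarks and -0.09 in thinned cells, and Hyou1 at 0.05 in thinned cells. Sdf2l1 was at -0.18 at ZT0 in thinned cells and at -0.07 at ZT12 in cells with at least 3000 UMIs, and its amplitude of the zone difference in thinned cells was 0.05, in another phase.

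Over single libraries left out, sign changes gave these ranges: between ZT12 and ZT0, Dnajb9 -0.46 to 0.92 and Hyou1 -2.41 to 0.05; between ZT18 and ZT6, Pdia4 -0.28 to 0.54; between zones, Hyou1 -0.14 to 0.21 and Sdf2l1 -0.10 to 0.01. At ZT0 they were -0.27 to 0.04 for Pdia4 and -0.34 to 0.21 for Hyou1, at ZT6 -0.06 to 0.16 for Pdia4, at ZT12 -0.18 to 0.57 for Creld2 and -0.07 to 0.59 for Sdf2l1, and at ZT18 -0.51 to 0.07 for Creld2 and -0.05 to 0.05 for Dnajb9. The amplitude of the zone difference changed phase within 0.01 to 0.10 for Hsp90b1, 0.02 to 0.13 for Pdia4 and 0.05 to 0.25 for Sdf2l1.

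Counts of called genes overall moved too. For all genes with a 24-h rhythm (458) they were 231 without both ZT18 libraries to 792 by DESeq2, and 228 to 465 over libraries left out; for all genes differing between ZT12 and ZT0 (306), 147 (without both C libraries) to 767 (index column as a block), and 214 to 314; for all genes differing between ZT18 and ZT6 (338), 199 at a mean of at least 20 CPM to 730 with the letter block, and 50 to 494. For all genes differing between zones (2210) the lowest was 1227, in cells with at least 3000 UMIs. For all genes with a zone-dependent rhythm (4) the range was 0 to 103 (slope), and 0 to 41. With library size alone the median log2 change of all genes was 0.135 between ZT12 and ZT0, where 66.7% of calls were higher against 50.7%, and -0.105 between zones, where 27.9% were periportal against 48.3%.

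Depth limits Hyou1, Creld2 and Sdf2l1 most, with 14 or 15 UMIs each in ZT12A. The alternatives without both C libraries, and those without both ZT18 libraries in zones, were chosen after seeing the data.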

Other observations

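In single cells thinned to 1000 UMIs the members varied little beyond counting: the median over libraries of the variance divided by the mean was 0.992 to 1.069. The correlation of a member with the sum of the other 9 had medians over libraries of -0.022 to 0.044. In counts this sparse such values describe the data and are no finding.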
